A study of Arabidopsis thaliana with 29 samples.

Results

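This account describes 9 genes of the lipid transfer protein family of Arabidopsis thaliana, of 32650 entries in each table. They were chosen by name: the secreted lipid transfer protein genes LTP1 (AT2G38540), LTP2 (AT2G38530), LTP3 (AT5G59320), LTP4 (AT5G59310), LTP5 (AT3G51600) and LTP6 (AT3G08770), the proline-rich genes AZI1 (AT4G12470) and EARLI1 (AT4G12480), and DIR1 (AT5G48485). All 9 were found, each as 1 entry not joined to another gene. The names were picked with results of these tables in view, so the members' levels and calls are given as a description. RNA of all leaves of 4 to 6 Columbia plants per library, grown on soil for 23 days at 22 °C with 16 h of light, was sequenced as paired reads of 100 bases. The study compared plants that over-express genes of the GLUTAMINE DUMPER (GDU) family, which encode small membrane proteins, with their controls. Dex-GDU1 plants carry GDU1 under the dexamethasone-inducible 6Op-LHGRn system in the background of their parent 4c-S7. Both lines were sprayed 5 h after dawn with 100 µM dexamethasone and 300 ppm Silwet L-77, kept under a humidity dome for 7 h, and sampled after 7 h (3 Dex-GDU1 and 4 4c-S7 libraries) or 25 h (again 3 and 4). The constitutive lines were not sprayed and were compared with Col wild type (2 libraries): the gdu1-1D mutant, a GDU1 over-expressor (3 libraries), and, with 2 libraries each, 35S-GDU2 and 35S-GDU4 to 35S-GDU6, in which the CaMV 35S promoter drives the named gene in most cell types. All transgenic lines are homozygous. The libraries are numbered as biological replicates and each line is 1 genotype, so an effect of the line itself cannot be told apart from that of its GDU gene.

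Non-specific lipid transfer proteins are small, cysteine-rich proteins that are secreted to the cell wall and can carry fatty acids and other lipids in a hydrophobic cavity. In leaves they are best known from the epidermis, where some take part in building or sealing the cuticle, and several of their genes respond to abscisic acid, drought or cold. AZI1 and EARLI1 join a proline-rich stretch to a lipid transfer domain. AZI1 is needed for the priming of defence by azelaic acid, and DIR1, an atypical lipid transfer protein, for the long-distance signal of systemic acquired resistance.

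In 3 cases a pair of the genes are neighbours. The promoters of the 2 pairs whose members changed most alike are shown as a description, and their part in the changes was not tested. LTP2 and LTP1 lie on the same strand 890 bases apart, AZI1 and EARLI1 on the same strand 4113 bases apart, and LTP4 and LTP3 point away from each other with 2996 bases and no other protein-coding gene between them. Each sequence is the 250 bases before the gene start annotated by RefSeq on TAIR10.1, written 5′ to 3′ on the gene's own strand. Capitals mark every match, on either strand, to ACGTG (the core of the abscisic acid response element), TTGAC (the W-box core) and TAACTG (a MYB binding site).
LTP3, chr5:23928704-23928953, plus strand: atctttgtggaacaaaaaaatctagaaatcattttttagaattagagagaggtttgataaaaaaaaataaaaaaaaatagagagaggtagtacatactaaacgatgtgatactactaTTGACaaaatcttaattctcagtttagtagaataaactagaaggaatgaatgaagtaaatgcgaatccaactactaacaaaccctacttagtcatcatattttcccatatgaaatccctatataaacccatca
LTP4, chr5:23925958-23926207, minus strand: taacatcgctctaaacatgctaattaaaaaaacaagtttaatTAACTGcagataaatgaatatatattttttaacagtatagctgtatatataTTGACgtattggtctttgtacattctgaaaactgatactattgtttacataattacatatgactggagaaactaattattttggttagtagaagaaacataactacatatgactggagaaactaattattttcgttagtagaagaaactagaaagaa
AZI1, chr4:7401952-7402201, minus strand: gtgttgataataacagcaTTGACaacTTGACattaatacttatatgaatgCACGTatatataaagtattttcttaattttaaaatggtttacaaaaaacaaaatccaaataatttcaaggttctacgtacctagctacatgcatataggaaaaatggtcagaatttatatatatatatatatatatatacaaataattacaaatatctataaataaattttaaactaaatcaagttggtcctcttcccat
EARLI1, chr4:7406995-7407244, minus strand: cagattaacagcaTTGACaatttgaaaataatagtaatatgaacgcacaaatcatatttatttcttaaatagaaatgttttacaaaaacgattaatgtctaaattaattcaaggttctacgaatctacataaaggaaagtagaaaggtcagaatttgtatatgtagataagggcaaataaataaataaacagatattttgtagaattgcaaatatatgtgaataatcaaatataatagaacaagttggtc
The AZI1 and EARLI1 windows aligned with 64.9% identical columns, while the other 35 pairs of members had between 47.9% and 55.6%, LTP3 with LTP4 among them at 49.0%. TTGAC occurred in 6 of the 9 promoters (LTP1, LTP3, LTP4, AZI1, EARLI1 and DIR1), against 44.9% of 27443 promoters of the same length. ACGTG occurred in those of LTP2 and AZI1 (22.9% of all), and TAACTG in those of LTP4 and DIR1 (8.12% of all). CACGTG, the G-box, and ACCGAC, the drought response element, were in none of the 9 windows and in 6.49% and 4.70% of all. A match is a string of letters and not a measured binding site. Within the transcripts the longest run shared without a difference was 44 bases for LTP3 and LTP4, 32 for AZI1 and EARLI1 and 40 for LTP1 and LTP2, each shorter than a 100-base read. Their coding sequences were 85.3%, 84.7% and 83.1% identical, and how the authors' alignment shared reads between such copies is not given in the sources used here.

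Levels are the authors' FPKM values (fragments per kilobase of transcript, scaled to the mapped fragments), 1 value per gene and group, so they can be compared between genes but carry no spread between libraries and no depth. Fold changes are line over control on the log2 scale, and their standard errors (SE) were recomputed from the authors' p-values. Where p is at its floor of 5e-05 the SE is an upper bound of the one implied by p. The deposited test statistics give other SEs, which can be larger. A gene was called where q in the authors' deposited table was below 0.05, which was so for 16% of the genes tested in Dex-GDU1 at 7 h, 46.1% at 25 h, 44.5% in gdu1-1D, 24.7% in 35S-GDU2, 15.4% in the libraries labelled 35S-GDU4, 55% in 35S-GDU5 and 48.8% in 35S-GDU6. The over-expressed gene was higher in 6 of the 7 comparisons. In the libraries labelled 35S-GDU4 no rise of GDU4 was called (8.72 FPKM in Col wild type and 10.9 in the line, q 0.949 in the authors' deposited table). The tables give its entry 1 stretch of the genome in common with others, 47 entries in all, so the value may not be that of GDU4 alone and the label could not be checked. Among root markers, RHD6 was listed at 0 in every group and COBL9 at or below 0.0316 FPKM, but PYK10 rose in all 5 constitutive lines, up to 65.5 FPKM in 35S-GDU5. The summed level of 4 guard cell markers was lower than in Col wild type in all 5 constitutive lines, from 0.929-fold in the libraries labelled 35S-GDU4 to 0.469-fold in 35S-GDU5, and 0.810-fold at 25 h. The trichome gene TRY was called lower in all 5 constitutive lines, down to 0.118-fold in 35S-GDU5, and higher at 25 h (1.58-fold). The trichome markers GL2 and GL1 were not tested in the constitutive lines. GL2 lay between 0.863-fold (gdu1-1D) and 3.70-fold (35S-GDU5, 0.580 FPKM), and GL1 went from 0 to 0.505 FPKM in 35S-GDU5. The photosynthesis genes LHCB2.1 and AT4G02770 (PSAD-1, in a stretch with 16 entries) were called lower in 35S-GDU5 at 0.594-fold and 0.499-fold. Both were also called lower in gdu1-1D (0.843-fold and 0.715-fold), as was AT4G02770 in 35S-GDU2 and 35S-GDU6. LHCB2.1 was called higher at 7 h (1.41-fold). Of 4 xylem markers 3 were called higher at 25 h (24.5% of all genes), with a summed level 1.22-fold that of 4c-S7. In 35S-GDU5 2 of them were called lower (26.5% of all genes), with a summed level 0.765-fold that of Col wild type. The xylem gene XCP1 was also called lower in 35S-GDU2 and 35S-GDU6. Of 4 phloem markers SWEET12 was called higher in all 5 constitutive lines, at 1.96-fold to 3.41-fold. APL was called lower in gdu1-1D, 35S-GDU2, 35S-GDU5 and 35S-GDU6, down to 0.462-fold. The part of all these markers in the results below was not tested. In whole leaves, fewer cells of a type and less RNA per cell cannot be told apart.

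**Figure D1:**
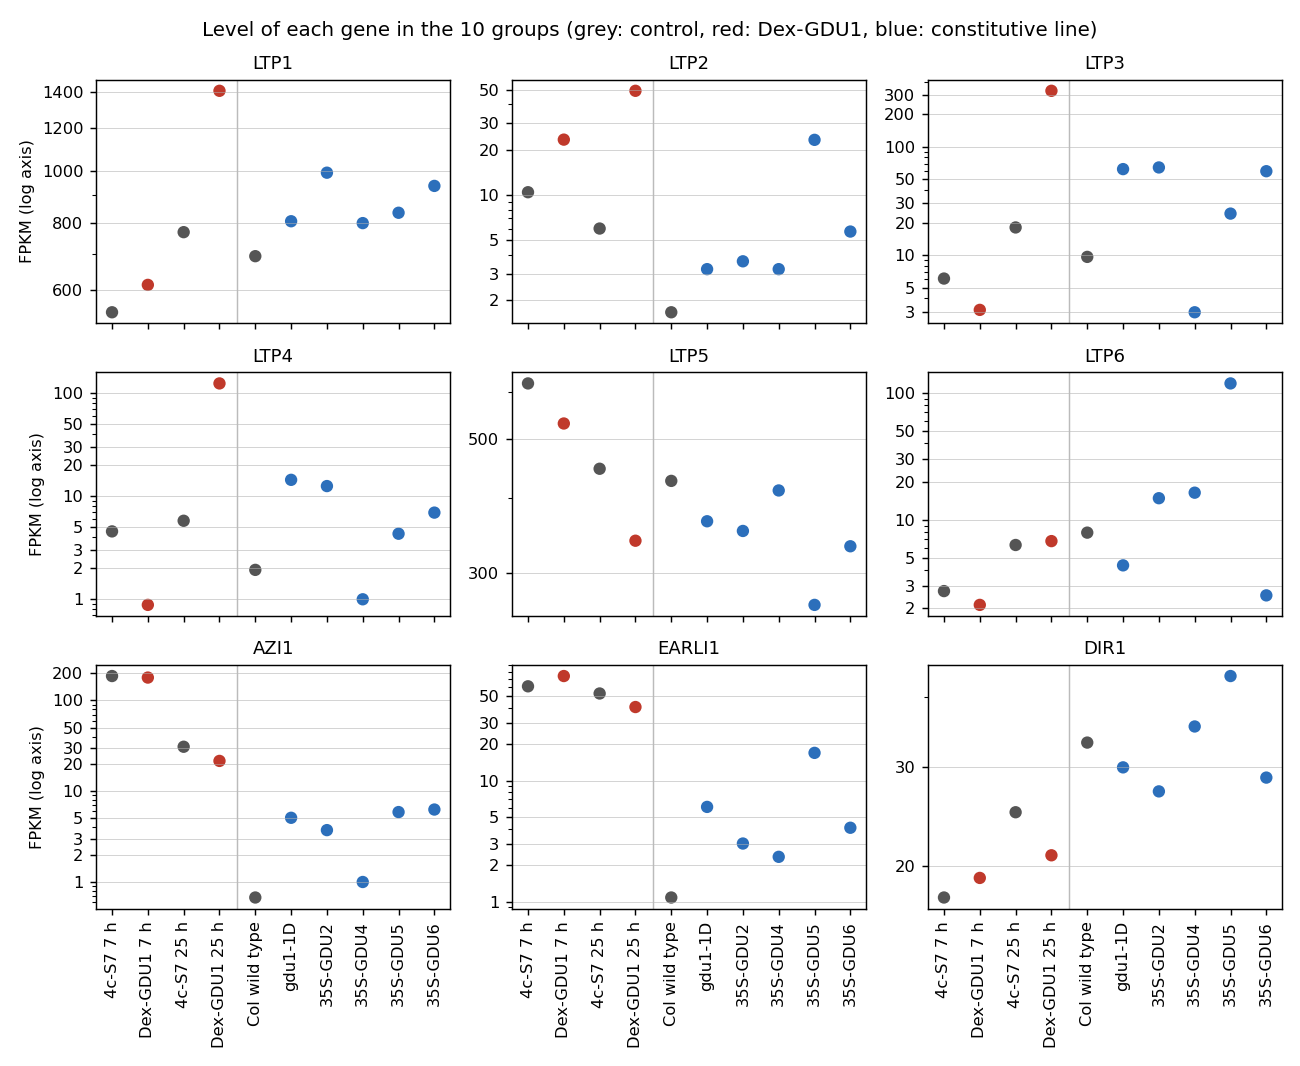
Level of each of the 9 genes (FPKM, log axis) in the 10 groups, 1 point per group because the authors pooled the libraries; lines compared with Col wild type are put on the scale of 1 table. AZI1 and EARLI1 stand highest in the 4 sprayed groups to the left of the grey line, and LTP3 and LTP4 highest in Dex-GDU1 at 25 h (330 and 125 FPKM).

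LTP1 and LTP5 were the most abundant of the 9 genes in every group, and their changes were small and opposite. LTP1 stood at 546 FPKM in 4c-S7 and 614 in Dex-GDU1 at 7 h, and at 769 and 1409 at 25 h. In the constitutive lines it reached 806 FPKM in gdu1-1D, 961 in 35S-GDU2, 749 in the libraries labelled 35S-GDU4, 866 in 35S-GDU5 and 877 in 35S-GDU6, over Col wild type values between 649 and 719 in the same 5 tables. The line was above its control in 7 of 7 comparisons. The rise was largest in Dex-GDU1 at 25 h, at 1.83-fold (log2 fold change 0.87, SE at most 0.22, q 0.00019 in the authors' deposited table), and in the other 6 the log2 fold change lay between 0.17 and 0.52.

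LTP5, known from pollen tube growth and pistil function, went the other way. It stood at 619 FPKM in 4c-S7 and 531 in Dex-GDU1 at 7 h and at 447 and 339 at 25 h. Among the constitutive lines it was lowest in 35S-GDU5, at 275 FPKM over 442 in Col wild type, and the other lines had 366 (gdu1-1D), 341 (35S-GDU2), 385 (labelled 35S-GDU4) and 311 FPKM (35S-GDU6) over Col values between 399 and 427. It was called lower in 6 of 7 comparisons, with log2 fold changes between -0.22 and -0.68, and the exception was the libraries labelled 35S-GDU4 (-0.05, q 0.738 in the authors' deposited table). None of these falls reached 2-fold.

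LTP2, whose protein has been tied to the joint between cuticle and cell wall, was a low-level gene next to its tandem neighbour LTP1 and rose in every line. At 7 h it went from 10.4 FPKM in 4c-S7 to 23.3 in Dex-GDU1, and at 25 h from 6.00 to 49.2. Col wild type had between 1.56 and 1.73 FPKM, and the lines had 3.23 (gdu1-1D), 3.52 (35S-GDU2), 3.02 (labelled 35S-GDU4), 24.1 (35S-GDU5) and 5.36 FPKM (35S-GDU6). It was called higher in 7 of 7 comparisons, from 1.93-fold in gdu1-1D and the libraries labelled 35S-GDU4 to 8.19-fold at 25 h (log2 fold change 3.03, SE at most 0.75) and 13.9-fold in 35S-GDU5 (3.80, SE at most 0.94). The ratio of LTP1 to LTP2 was accordingly far from constant: 415 in Col wild type, 164 in 35S-GDU6, 35.9 in 35S-GDU5 and 28.6 in Dex-GDU1 at 25 h.

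LTP3 and LTP4 moved most, and in both directions. LTP3 and LTP4 are known to respond to abscisic acid and salt, and LTP3 to be a target of the wax regulator MYB96 in drought and freezing. LTP3 was 6.07 FPKM in 4c-S7 and 3.12 in Dex-GDU1 at 7 h, and 18.0 and 330 at 25 h. Against Col wild type values between 9.0 and 9.97 FPKM it stood at 62.3 in gdu1-1D, 62.5 in 35S-GDU2, 25.1 in 35S-GDU5 and 55.7 in 35S-GDU6, but at 2.77 in the libraries labelled 35S-GDU4. It was thus lower in Dex-GDU1 at 7 h (log2 fold change -0.96, SE at most 0.24) and in the libraries labelled 35S-GDU4 (-1.70, SE at most 0.42), and higher in the other 5 comparisons. The rise at 25 h was 18.3-fold (4.19, SE at most 1.03, q 0.00019 in the authors' deposited table).

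LTP4 followed LTP3 at a lower level. It fell from 4.54 FPKM in 4c-S7 to 0.877 in Dex-GDU1 at 7 h and stood at 5.77 and 125 at 25 h. Over 1.79 to 1.98 FPKM in Col wild type it was 14.4 in gdu1-1D, 12.1 in 35S-GDU2, 4.47 in 35S-GDU5 and 6.47 in 35S-GDU6. In the libraries labelled 35S-GDU4 it was 0.931 FPKM over 1.79, which was not called (q 0.113 in the authors' deposited table). The log2 fold changes of the called comparisons ran from -2.37 (SE at most 0.59) at 7 h to 4.44 (SE at most 1.09) at 25 h. Across the 7 comparisons the log2 fold changes of the divergent neighbours had a Pearson r of 0.95 (n = 7, of which 5 share the Col wild type libraries), while those of LTP1 and LTP2 had 0.42. LTP3 was 5.01 to 5.02 times LTP4 in Col wild type, and between 1.34 times (4c-S7 at 7 h) and 8.61 times (35S-GDU6) elsewhere.

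**Figure D2:**
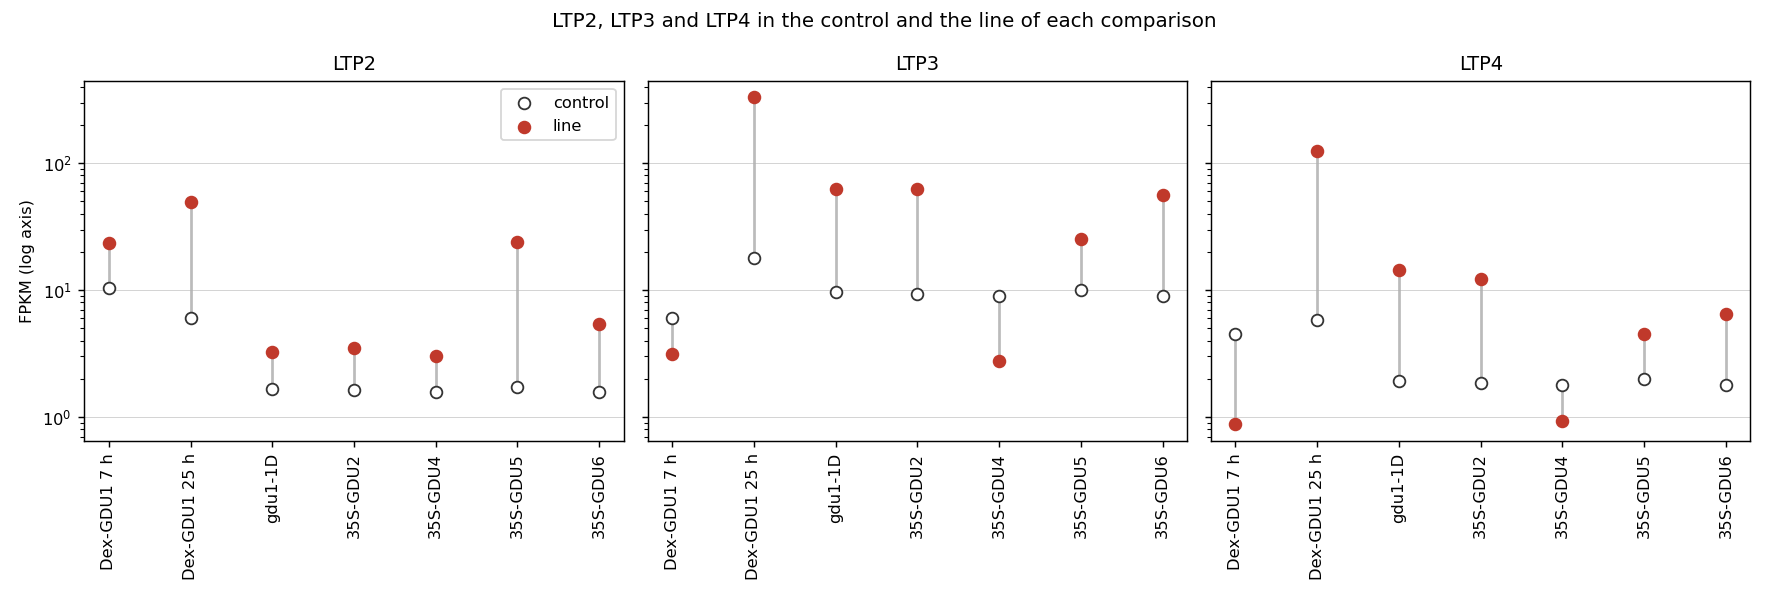
FPKM (log axis) of LTP2, LTP3 and LTP4 in the control (open circle) and the line (filled circle) of each of the 7 comparisons, joined by a grey bar; 1 value per group and no error bars because the libraries were pooled by the authors. LTP2 is above its control throughout, while LTP3 and LTP4 lie below it at 7 h and in the libraries labelled 35S-GDU4 and far above it at 25 h.

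The response to GDU1 induction was set side by side between 7 h and 25 h. For LTP4 the log2 fold change at 25 h exceeded that at 7 h by 6.81 (SE at most 1.24), for LTP3 by 5.16 (SE at most 1.06), for LTP2 by 1.88 (SE at most 0.80) and for LTP1 by 0.70 (SE at most 0.22). It was lower at 25 h for EARLI1 (-0.65, SE at most 0.12), AZI1 (-0.46, SE at most 0.14) and DIR1 (-0.37, SE 0.14). For LTP5 the difference was -0.18 (SE at most 0.11) and for LTP6 0.46 (SE 0.28). These differences were not tested, because the members were chosen with both results in view. The 7 h harvest falls late in the day and the 25 h harvest in the middle of the next, so time after spraying and time of day cannot be told apart.

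LTP6 rose in some constitutive lines and fell in others, and did not follow LTP3. It was 2.74 FPKM in 4c-S7 and 2.13 in Dex-GDU1 at 7 h and 6.32 and 6.78 at 25 h, neither called (q 0.369 and 0.613 in the authors' deposited tables). Over Col wild type values between 7.39 and 8.19 FPKM it reached 123 in 35S-GDU5, 15.3 in the libraries labelled 35S-GDU4 and 14.3 in 35S-GDU2, and fell to 4.37 in gdu1-1D and 2.37 in 35S-GDU6. The rise in 35S-GDU5 was 15.0-fold (log2 fold change 3.91, SE at most 0.96), and the falls were -0.86 in gdu1-1D and -1.64 in 35S-GDU6. PDF1, 1 of 5 epidermis markers, moved beside it: it rose to 163 FPKM in 35S-GDU5 and 52.9 in the libraries labelled 35S-GDU4 and fell in gdu1-1D and 35S-GDU6, but also fell in 35S-GDU2. In Dex-GDU1 PDF1 was called lower at 7 h (0.846-fold) and 25 h (0.593-fold), where LTP6 was not called. The sum of all 5 markers was 1.66-fold and 1.26-fold that of Col wild type in 35S-GDU5 and the libraries labelled 35S-GDU4. In the other 3 constitutive lines it was between 0.851-fold and 0.922-fold. Of the other 4 markers none was called higher in any line. In the libraries labelled 35S-GDU4 they lay between 1.01-fold and 1.11-fold. The part of these markers in the LTP6 values was not tested.

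AZI1 and EARLI1 were close to absent in unsprayed wild type leaves and abundant in every sprayed group. AZI1 stood at 0.628 to 0.696 FPKM in Col wild type, and at 5.08 in gdu1-1D, 3.60 in 35S-GDU2, 6.09 in 35S-GDU5 and 5.86 in 35S-GDU6. In the libraries labelled 35S-GDU4 it was 0.932 FPKM, and the authors' table marks no test there. The rises were between 5.54-fold and 9.34-fold, with log2 fold changes from 2.47 (SE at most 0.61) in 35S-GDU2 to 3.22 (SE at most 0.79) in 35S-GDU6. In the sprayed plants AZI1 was at 186 FPKM in 4c-S7 and 179 in Dex-GDU1 at 7 h (q 0.605 in the authors' deposited table), and at 30.9 and 21.6 at 25 h, where it was lower in Dex-GDU1 (-0.52, SE at most 0.13).

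EARLI1, first described as a gene induced by aluminium, stood at 1.01 to 1.12 FPKM in Col wild type. It was called higher in all 5 constitutive lines, at 6.08 FPKM in gdu1-1D, 2.93 in 35S-GDU2, 2.20 in the libraries labelled 35S-GDU4, 17.6 in 35S-GDU5 and 3.82 in 35S-GDU6. The log2 fold changes ran from 1.12 (SE 0.35, q 0.0135 in the authors' deposited table) in the libraries labelled 35S-GDU4 to 3.98 (SE at most 0.98) in 35S-GDU5. In the sprayed plants it changed much less: 60.5 FPKM in 4c-S7 and 73.6 in Dex-GDU1 at 7 h (0.28, SE at most 0.07), and 52.8 and 40.8 at 25 h (-0.37, SE at most 0.09). Across the 7 comparisons the log2 fold changes of AZI1 and EARLI1 had a Pearson r of 0.87 (n = 7, including the untested AZI1 value).

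The level in the sprayed control line was itself far from that in Col wild type. AZI1 in 4c-S7 at 7 h was 277 times its level in Col wild type. This was the highest such ratio among 16938 genes that were tested at 7 h and passed a minimum level in Col wild type. EARLI1 was 56.0 times, a ratio that 10 of these genes, itself included, reached. Genes below that minimum in Col wild type, which could have larger ratios, were not ranked. The minimum lay below 1 FPKM. AZI1 passed it at 0.672 FPKM in Col wild type, and at a minimum of 1 FPKM it would not have been ranked. LTP2 was 6.26 times and LTP4 2.37 times as high, and LTP1, LTP3, LTP6 and DIR1 were below Col wild type. The median ratio of the 16040 genes with at least 1 FPKM in both groups, AZI1 not among them, was 1.18. At 25 h AZI1 was 46.0 times and EARLI1 48.8 times the Col wild type level. The ratio of AZI1 to EARLI1 was 3.07 in 4c-S7 at 7 h, 0.585 at 25 h and 0.62 in Col wild type. These groups come from tables that were normalized separately and have no test between them, and the spray, the humidity dome, the transgene of 4c-S7 and the hour of harvest cannot be told apart.

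**Figure D3:**
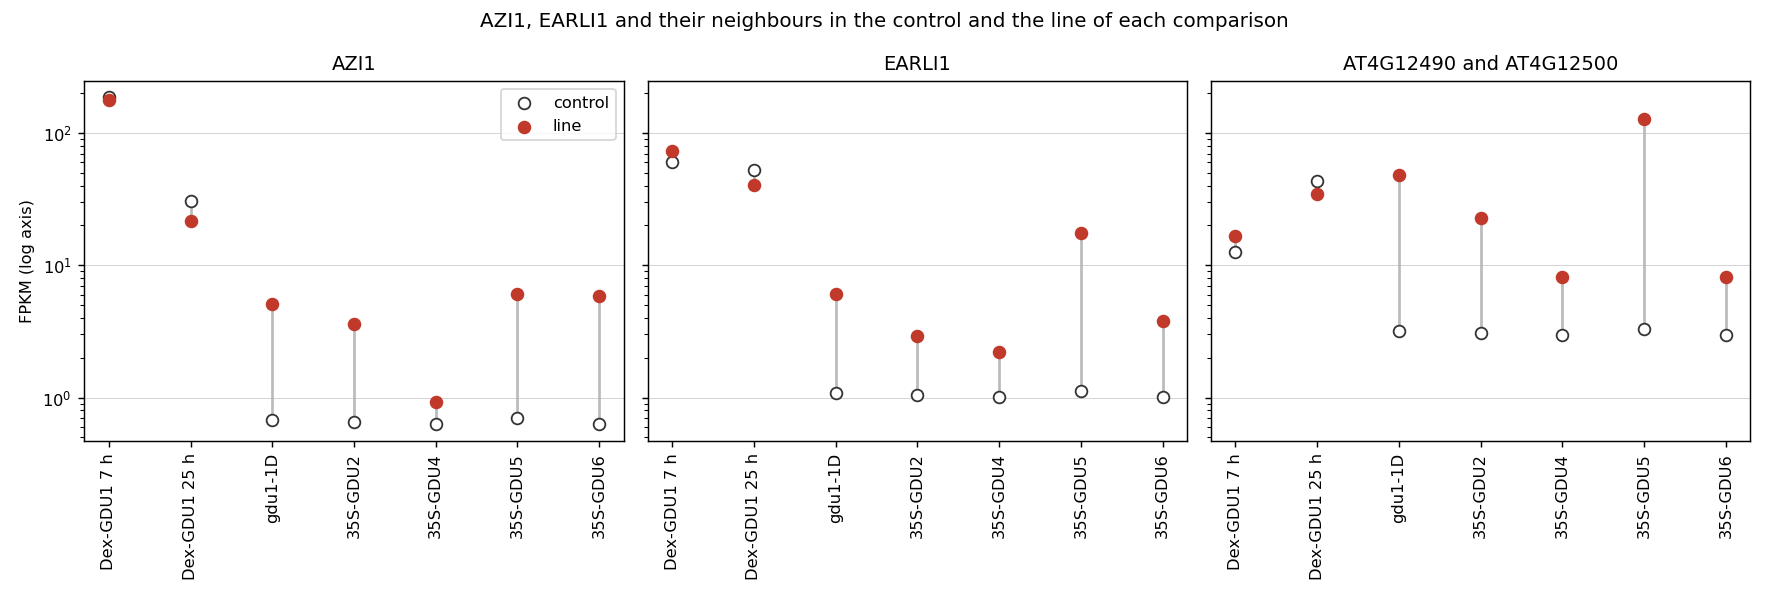
FPKM (log axis) of AZI1, EARLI1 and the joined entry of AT4G12490 and AT4G12500 in the control (open circle) and the line (filled circle) of each comparison, 1 value per group with no error bars because the libraries were pooled by the authors. In the 2 sprayed comparisons control and line nearly coincide at a high level, and in the unsprayed ones the line rises from a control near 1 FPKM for AZI1 and EARLI1.

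AT4G12490 and AT4G12500, the next proline-rich genes of the same cluster, were counted as 1 joined entry. They are 90.5% identical in their coding sequence and share a run of 87 bases. The entry rose from about 3 FPKM in Col wild type (2.97 to 3.30) to 48.3 in gdu1-1D, 22.8 in 35S-GDU2, 8.12 in the libraries labelled 35S-GDU4, 128 in 35S-GDU5 and 8.16 in 35S-GDU6. At 7 h it was 12.5 FPKM in 4c-S7 and 16.7 in Dex-GDU1, and at 25 h 43.1 and 34.3. All 7 were called, 6 higher and the one at 25 h lower, the signs that EARLI1 had.

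DIR1 stayed within a narrow range: its largest log2 fold change in either direction was 0.39, the smallest such limit among the 9 genes. It was 17.6 FPKM in 4c-S7 and 19.0 in Dex-GDU1 at 7 h and 24.9 and 20.9 at 25 h. Over Col wild type values between 31.0 and 34.3 it was 29.9 in gdu1-1D, 26.3 in 35S-GDU2, 33.1 in the libraries labelled 35S-GDU4, 45.1 in 35S-GDU5 and 26.8 in 35S-GDU6. It was called higher in 35S-GDU5 (log2 fold change 0.39, SE at most 0.10) and lower in Dex-GDU1 at 25 h (-0.25, SE 0.09), 35S-GDU2 (-0.29, SE 0.11) and 35S-GDU6 (-0.21, SE 0.09), and not called in 3 comparisons. Its neighbour AT5G48490, 943 bases away on the same strand, was called lower in 4 comparisons, at 116 in 4c-S7 and 68.9 FPKM in Dex-GDU1 at 25 h, at 150 in Col and 86.6 in gdu1-1D, and higher in the libraries labelled 35S-GDU4 (140 to 192 FPKM).

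Counted by comparison, 3 of the 9 genes were called higher and 3 lower at 7 h, where 8.76% and 7.19% of all tested genes were, and 4 and 4 at 25 h (24.5% and 21.6% of all). In gdu1-1D 6 were higher and 2 lower (23.1% and 21.4%), and in 35S-GDU2 7 and 2 (14.5% and 10.2%). In 35S-GDU5 8 were higher and 1 lower (28.5% and 26.5%), and in 35S-GDU6 6 and 3 (24.9% and 23.9%). In the libraries labelled 35S-GDU4 4 were higher and 1 lower of 8 tested (9.65% and 5.71%). The median log2 fold change of the 9 members was -0.06 at 7 h, 0.10 at 25 h, 0.95 in gdu1-1D and 1.12 in 35S-GDU2. It was 1.33 in 35S-GDU5, 1.78 in 35S-GDU6 and, with the untested AZI1 value included, 0.20 in the libraries labelled 35S-GDU4. That of all genes tested lay between -0.01 and 0.01 in each comparison. Since the genes were picked with these tables in view, nothing is read from the distance of these counts to the shares called over all genes.

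**Figure D4:**
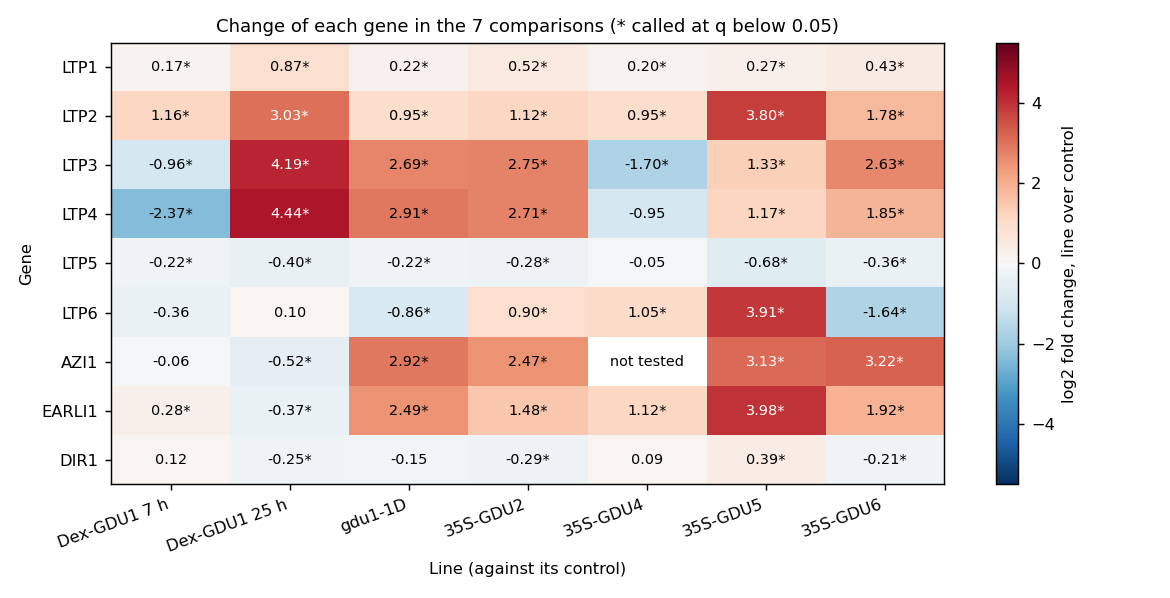
Log2 fold change (line over control, colour and number) of the 9 genes in the 7 comparisons, with an asterisk where the gene was called at q below 0.05 and "not tested" where the authors' table marks no test. LTP1 and LTP2 are above 0 in each column, LTP5 is below 0 in each, and the other 6 genes change sign between columns.

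The genes whose log2 fold changes were most alike to those of 4 members were found among 2471 genes. These were tested in all 7 comparisons, changed at least 2-fold in 1 or more and reached 5 FPKM in some group. Pearson's r over the 7 comparisons (n = 7) is given as a description with no test. For LTP3 the 5 closest were AT3G27250, AT5G15500, LTI140, COR15 and AT4G30460, with r from 0.97 to 0.99, and for LTP1 DEAR3, ERD10, AT4G09500, AT1G57590 and AAP1 (0.87 to 0.95). For AZI1 they were MERI5B, AT5G44575, AT3G16460, AT4G36040 and XTR6 (0.96 to 0.97), and for EARLI1 AT5G18490, XYL4, AT3G52480, WRKY47 and CRF6 (0.98 to 0.99). In all, 5 of the 7 comparisons share the Col wild type libraries. The AZI1 value in the libraries labelled 35S-GDU4, which the authors' table marks as untested, was included. LTP3 at 4.19 in Dex-GDU1 at 25 h stood beside 3.13 for LTI140 and 2.71 for COR15, and AZI1 at 3.13 in 35S-GDU5 beside 3.37 for XTR6.

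Of the other secreted lipid transfer protein genes, LTP7 was the abundant one in leaves and moved little. It was 135 to 150 FPKM in Col wild type and was called lower in gdu1-1D (log2 fold change -0.27) and 35S-GDU5 (-0.70, 150 to 92.3 FPKM). LTP12 was called in 35S-GDU2, listed at 0 in Col wild type and at 2.13 FPKM in the line, and AT5G01870 in 35S-GDU5, listed at 0 and at 2.64 FPKM. Of the 6 genes for LTPG proteins, lipid transfer proteins anchored in the plasma membrane, 4 were tested throughout. LTPG5 had the sign of LTP3 in each of the 7 comparisons, but at 7 h it was not called. Its level was 36.6 FPKM in 4c-S7 and 83.6 in Dex-GDU1 at 25 h, and the log2 fold change was 3.55 in gdu1-1D, 3.30 in 35S-GDU2 and 4.84 in 35S-GDU5. In 35S-GDU6 it went from 4.48 to 12.7 FPKM, and in the libraries labelled 35S-GDU4 it fell from 4.48 to 2.05. LTPG1, which takes part in wax export, was lower in 5 comparisons, by -0.16 to -0.61, and LTPG2 in 4, by -0.23 to -0.83.

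Among the 16 entries for proline-rich relatives of AZI1 and the neighbour of DIR1, 7 to 9 were tested per comparison. At 25 h 2 were higher and 5 lower of 8 (24.5% and 21.6% of all genes), and in 35S-GDU5 4 and 4 of 9 (28.5% and 26.5%). At 7 h 2 were higher and 1 lower of 8 (8.76% and 7.19%), and in gdu1-1D 3 and 3 of 7 (23.1% and 21.4%). In 35S-GDU2 4 were higher and 1 lower of 8 (14.5% and 10.2%), and in 35S-GDU6 3 and 1 of 7 (24.9% and 23.9%). In the libraries labelled 35S-GDU4 4 were higher and 0 lower of 7 (9.65% and 5.71%). AT1G62510 was higher in 6 comparisons, with 24.2 and 107 FPKM at 25 h, 34.9 and 231 in 35S-GDU6 and log2 fold changes between 0.38 and 2.73. The abundant gene AT2G10940 was lower in 4, by -0.57 to -0.94, as was AT2G45180, by -0.28 to -0.90. The median log2 fold change of the list was -0.28 at 25 h and 0.84 in 35S-GDU5. In the other comparisons it lay between -0.06 (gdu1-1D) and 0.23 (35S-GDU2).

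Of 28 cuticular wax and cutin genes, 7 rose and 6 fell of 25 tested at 25 h, shares near those of all genes (24.5% and 21.6%). In 35S-GDU2 9 rose and 2 fell of 25 (14.5% and 10.2% of all genes), and in 35S-GDU5 4 and 11 of 25 (28.5% and 26.5%), where the list's median was -0.16. MYB96, which activates wax synthesis under drought, was higher in 7 of 7 comparisons. It stood at 8.34 FPKM in 4c-S7 and 15.3 in Dex-GDU1 at 7 h, and rose from 8.59 to 24.6 in the libraries labelled 35S-GDU4, the 2 comparisons in which LTP3 was lower. WSD1, a wax ester synthase, rose from 2.13 to 15.8 FPKM at 25 h. CER1, needed for alkanes and joined with AT1G02190 in the tables, rose from 41.3 to 98.4. LACS1, a long-chain acyl-CoA synthetase, fell in 5 comparisons, by -0.26 to -0.90, and rose in 35S-GDU5.

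Of 13 partners of AZI1 and DIR1 in systemic acquired resistance, 2 rose and 4 fell at 7 h (8.76% and 7.19% of all genes), and 8 and 2 at 25 h (24.5% and 21.6%). In gdu1-1D 8 rose and 3 fell (23.1% and 21.4% of all genes), in 35S-GDU5 8 and 4 (28.5% and 26.5%), and in the libraries labelled 35S-GDU4 1 and 3 of 12 tested (9.65% and 5.71%). In 35S-GDU2 4 rose and 1 fell (14.5% and 10.2% of all genes), and in 35S-GDU6 5 and 4 (24.9% and 23.9%). The median was -0.15 at 7 h, 0.30 at 25 h, 0.46 in gdu1-1D and 0.82 in 35S-GDU5. It was 0.02 in 35S-GDU2, -0.08 in the libraries labelled 35S-GDU4 and 0.17 in 35S-GDU6. ALD1, an enzyme of pipecolic acid synthesis, rose from 0.321 to 13.4 FPKM in gdu1-1D (log2 fold change 5.38) and from 0.333 to 11.4 in 35S-GDU5 (5.10). The entry of AT5G03350, in a stretch with 36 entries, rose from 106 to 463 FPKM in gdu1-1D and fell from 98.7 to 33.3 in the libraries labelled 35S-GDU4. PDLP5, a plasmodesmal protein, rose in 5 comparisons, by 1.02 to 3.10, and the kinase gene MPK3 in all 7, by 0.38 at 7 h and from 49.8 to 214 FPKM in 35S-GDU5.

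The genes of these other lists were tested for a difference between both times. Like the members, these lists were chosen with earlier results known, so the counts that passed are given as a description. Of 50 entries tested at both times, 18 differed at an adjusted p below 0.05 (normal test of the difference of both log2 fold changes, Benjamini-Hochberg over 17114 genes), against 17.2% of all genes. Of the 13 systemic acquired resistance partners 6 were more positive at 25 h and none more negative, of 24 wax and cutin genes 1 and 6, of 8 proline-rich relatives 1 and 3, and of 4 LTPG genes 1 and none, while 10.4% of all genes were more positive and 6.88% more negative. The median difference was 0.38 for the partners and -0.07 for the wax and cutin genes. With the SE from the deposited test statistic, 5 of these 18 passed (LTPG5, AT1G62510, AT2G10940, CER1 and, as the only partner, ALD1).

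**Figure D5:**
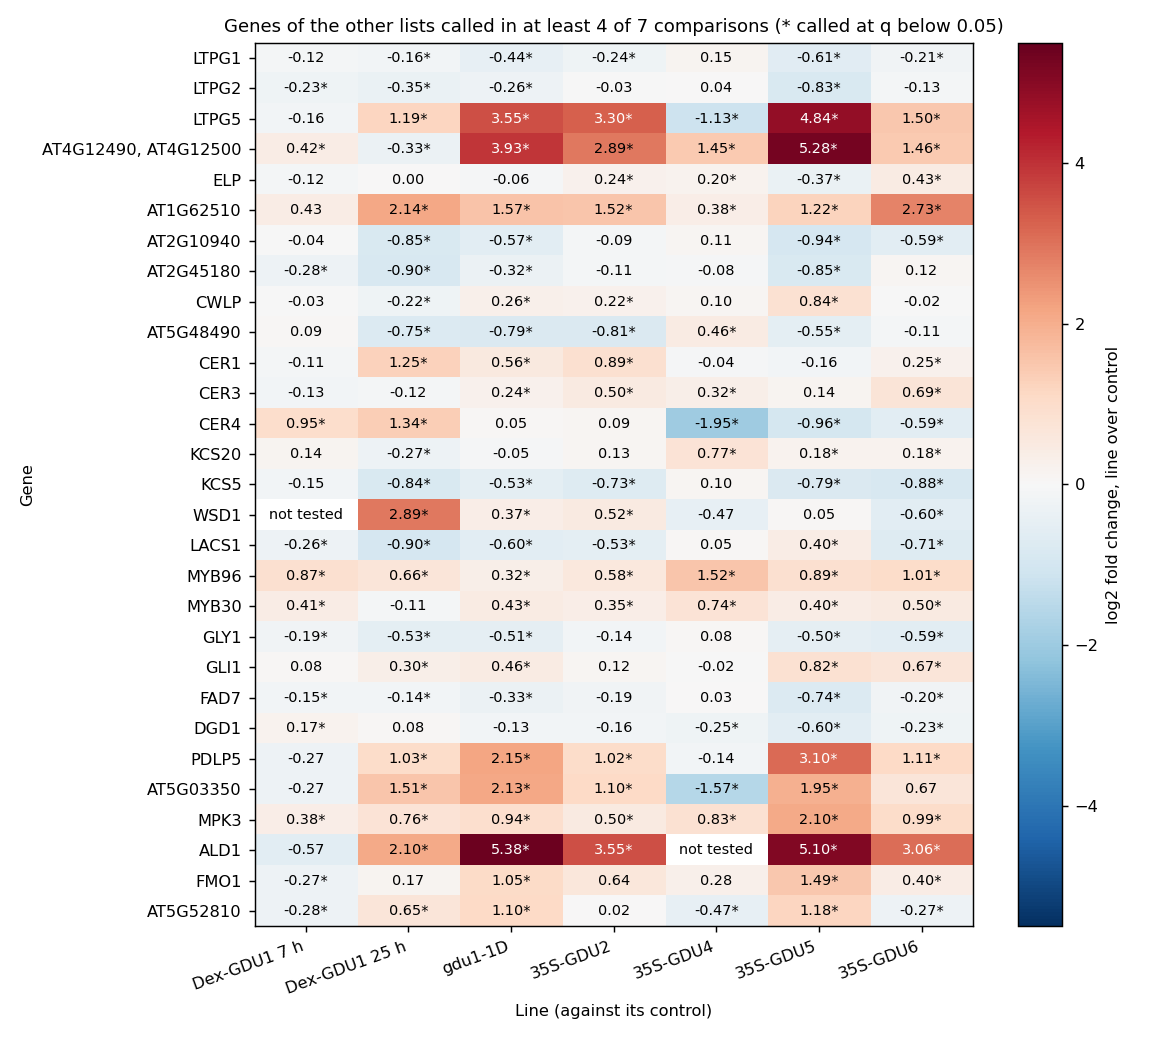
Log2 fold change (line over control, colour and number) of the 29 genes of the other lists that were called in at least 4 of 7 comparisons, with an asterisk where called at q below 0.05. LTPG5, the AT4G12490 and AT4G12500 entry and ALD1 have the deepest colours in gdu1-1D and 35S-GDU5, and MYB96 and MPK3 are above 0 in each column.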

How the data were processed

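The 7 deposited tables compare 27 libraries in 10 groups, and 2 groups of 1 library were not analysed here. Per the submitters' processing notes, reads were processed with TopHat2, Cufflinks and Cuffdiff on TAIR10, and versions, strand setting and read totals are not given in the sources used here, so depth is unknown. Per the file headers, the authors' FPKM values are 1 per gene and group, computed per comparison, with a Cuffdiff p-value and q-value and a test statistic (score). The p-values come from Cuffdiff with 2 to 4 libraries per group, and how it estimated the spread between libraries is not given in the sources used here. The median ratio of the deposited Col FPKM values to those of the first table lay between 0.935 and 1.04. Members were matched by name and position. Log2 fold changes were recomputed from FPKM with no pseudocount, and the SE is the log2 fold change over the normal quantile of p. The difference between times was tested per gene with a normal approximation, adjusted (Benjamini-Hochberg) over 17114 genes, and the procedure was tested on simulated data. Of 21762 entries that carry a locus tag, the start plus 1 equals the TAIR10.1 gene start in 8881 and the start itself in 91. Coding sequences were aligned globally with Biopython 1.88 (match 2, mismatch -1, gap open -3, gap extend -0.5), and figures drawn with matplotlib 3.10.9, in Python 3.11.15 with pandas 2.3.3, numpy 2.4.6 and scipy 1.17.1. The members and gene lists were chosen with earlier results of these data known. Named beside the members were up to 4 called genes per list and comparison with the largest change, relatives called in at least 4 comparisons, and the 5 genes most alike to LTP1, LTP3, AZI1 and EARLI1 (FPKM of at least 5 in a group, changed at least 2-fold in 1 comparison). The text gives part of these. Alternatives were a pseudocount of 1, centring, q below 0.01, a minimum FPKM of 1, a 2-fold change and leaving out the 1238 joined entries.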

Additional observations from a re-analysis of the deposited data

Results flagged for a closer look

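The response of Dex-GDU1 plants differed between 25 h and 7 h for 15 named genes of the other lists at an adjusted p below 0.05 (normal test of the difference, Benjamini-Hochberg adjusted over 17114 genes, of which 17.2% passed), with values given as the log2 fold change at 25 h minus that at 7 h. Among relatives of the lipid transfer proteins the difference was 1.35 for LTPG5 (adjusted p 0.000451), 1.71 for AT1G62510 (0.0193), -0.75 for the joined entry of AT4G12490 and AT4G12500 (7.06e-06), -0.81 for AT2G10940 (0.00372) and -0.83 for AT5G48490 (0.00556). Among wax and cutin genes it was 1.36 for CER1, -0.42 for KCS20, -0.69 for KCS5, -0.64 for LACS1 and -0.52 for MYB30. Among partners in systemic acquired resistance it was 2.67 for ALD1, 1.78 for AT5G03350, 1.30 for PDLP5, 0.93 for the entry that joins AT5G52810 with AT5G52800 and 0.43 for that of FMO1 with AT1G19240. The AT5G03350 entry lies in a genome stretch that the tables give to 36 entries, and CER1 is joined with AT1G02190. With the SE taken from the deposited test statistic, 5 of the 15 passed (LTPG5, AT1G62510, AT2G10940, CER1 and ALD1), and these were also the 5 that passed of all 18 list genes that differed. Because the lists were chosen with earlier results known, these tests are given as a description.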

How the results depend on the processing

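No paired analysis was possible because the tables hold 1 value per gene and group, which for the same reason allowed no replicate to be left out. Of 62 tested member changes, 8 lost the call at q below 0.01 and 25 when a 2-fold change was asked for, and none lost it with an FPKM of at least 1 and a new adjustment. A pseudocount and centring leave q as deposited and no member is joined, so these alternatives could not change a member's call, and no direction reversed under either scaling. Asking for a 2-fold change left 2 called members of 6 at 7 h, 3 of 8 at 25 h, 4 of 8 in gdu1-1D, 5 of 9 in 35S-GDU2 and 3 of 5 in the libraries labelled 35S-GDU4, where q below 0.01 left 2. Among all genes the 2-fold limit left 180 of 2791 calls at 7 h, 957 of 8143 at 25 h, 1401 of 7866 in gdu1-1D, 938 of 4272 in 35S-GDU2, 495 of 2612 in the libraries labelled 35S-GDU4, 2902 of 9980 in 35S-GDU5 and 1562 of 8438 in 35S-GDU6, and q below 0.01 left 1851 at 7 h. The difference between both times was called for 2951 genes, for 1442 at an adjusted p below 0.01 and for 398 with the SE from the deposited test statistic. Those statistics and the deposited p-values give different SEs, and the cause was not tested. At the smallest p-value the SE grows with the change, which limits the test for large changes. Without library values, no spread and no detection limit could be given, which bears most on AZI1, EARLI1, LTP2 and LTP4 near 1 FPKM in Col wild type.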

Other observations

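The LTP4 window shown above repeats a run of 29 bases, with copies that begin 104 and 54 bases before the annotated gene start. The DIR1 window holds TAACTG at 2 places, 240 and 207 bases before its start. The AZI1 window holds TTGAC at 2 places, 232 and 224 bases before its start, and that of EARLI1 once, at 237 bases. The 3 neighbouring pairs had coding identities within 83.1% to 85.3%, but Pearson's r of their log2 fold changes over the 7 comparisons was 0.95 for LTP3 and LTP4, 0.87 for AZI1 and EARLI1 and 0.42 for LTP1 and LTP2 (n = 7 each). For LTP2 and LTP5, on different chromosomes, it was -0.91. These values are a description of few comparisons, 5 of which share their control libraries.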
